A study of Mus musculus with 4 samples.

Results

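S100 proteins were examined at the RNA level in 4 cultured mouse mammary tumor cell lines. The members were 10 S100 genes given by symbol (S100a1, S100a4, S100a6, S100a8, S100a9, S100a10, S100a11, S100a13, S100a14 and S100a16), and all 10 were found among the 38713 genes of the deposited table. A filter on low values (at least 2 libraries with an FPKM of 1 or more) kept 9 of the 10 members and 12998 genes in all. FPKM are mapped fragments scaled by transcript length and by the fragments mapped in the library, so levels can be compared between genes. Each line gave 1 library. The 2 JNK_WT lines (labeled p53-/-, C57BL/6) were derived from tumors of parous female mice with Wap-Cre and floxed Trp53. The 2 JNK_KO lines (labeled p53-/- JNK-/-, C57BL/6) came from mice that carried floxed Mapk8 and Mapk9 in addition, so loss of Trp53 was shared by all 4 lines. The Wap promoter drives Cre in the luminal epithelium of the lactating gland, and each cell line represents 1 tumor after passage in culture. The lines are numbered 1 and 2 for JNK_WT and 1 and 3 for JNK_KO.

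S100 proteins are small proteins with a pair of EF-hand calcium-binding loops, most of which form dimers. On binding calcium they expose a surface that docks to target proteins such as annexins and myosin, and several members are released from cells and bind receptors such as RAGE and TLR4. In epithelia and carcinomas the family is known for roles in membrane organization, motility and inflammation, and most of its genes lie in one region of a single chromosome.

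All 10 members are on chromosome 3 (GENCODE M21, GRCm38, the assembly that mm10 denotes). A first cluster of 8 members lies within 185 kb, between 90511034 and 90695721, in the order S100a1, S100a13, S100a14, S100a16, S100a4, S100a6, S100a8 and S100a9. S100a11 and S100a10 lie 2.82 Mb further on, between 93520488 and 93564643. S100a1 and S100a9 are on the minus strand and the others on the plus strand.

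The promoter windows that bear on the results are shown first, from RefSeq for GRCm38.p6. Each window spans 250 bases before to 50 bases after a gene's start and is written 5′ to 3′ on the strand of the gene. Windows were found for 8 of the 10 members (9 windows, since S100a16 has 2 starts). Windows for S100a10 and S100a14 were not used here. S100a1 and S100a13 face away from each other, with 42 bases between their starts in GENCODE M21. The S100a1 window (chr3:90514281-90514580, minus strand) follows RefSeq and is not placed on the GENCODE start. The windows of both genes share 204 bases, which are in capitals in the S100a13 window (chr3:90514185-90514484, plus strand). These are the reverse complement of the same stretch of the S100a1 window. S100a8 and S100a9 encode the subunits of one complex, and capitals mark TATAAA in their windows (chr3:90668821-90669120, plus strand, and chr3:90695672-90695971, minus strand). S100a11 is shown because its window holds the AP-1 motif, the sequence bound by the JNK substrate JUN together with FOS proteins, and capitals mark TGANTCA (chr3:93520246-93520545, plus strand).
S100a13: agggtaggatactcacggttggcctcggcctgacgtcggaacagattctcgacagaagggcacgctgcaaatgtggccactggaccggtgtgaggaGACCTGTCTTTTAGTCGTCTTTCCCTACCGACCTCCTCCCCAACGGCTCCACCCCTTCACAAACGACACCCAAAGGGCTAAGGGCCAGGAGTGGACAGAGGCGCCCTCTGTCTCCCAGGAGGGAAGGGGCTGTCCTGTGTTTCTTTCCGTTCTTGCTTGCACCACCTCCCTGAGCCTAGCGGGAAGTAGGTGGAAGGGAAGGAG
S100a8: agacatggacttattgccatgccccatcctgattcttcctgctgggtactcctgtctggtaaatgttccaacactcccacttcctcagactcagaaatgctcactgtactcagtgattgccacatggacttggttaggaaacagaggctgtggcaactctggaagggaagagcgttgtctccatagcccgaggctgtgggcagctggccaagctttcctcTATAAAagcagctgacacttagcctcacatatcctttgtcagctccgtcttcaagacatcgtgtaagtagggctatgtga
S100a9: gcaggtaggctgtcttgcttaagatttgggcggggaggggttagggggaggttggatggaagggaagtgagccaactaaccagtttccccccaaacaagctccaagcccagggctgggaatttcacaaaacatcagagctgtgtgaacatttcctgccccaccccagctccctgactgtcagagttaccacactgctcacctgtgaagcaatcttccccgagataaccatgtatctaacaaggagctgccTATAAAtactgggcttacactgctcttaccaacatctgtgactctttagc
S100a11: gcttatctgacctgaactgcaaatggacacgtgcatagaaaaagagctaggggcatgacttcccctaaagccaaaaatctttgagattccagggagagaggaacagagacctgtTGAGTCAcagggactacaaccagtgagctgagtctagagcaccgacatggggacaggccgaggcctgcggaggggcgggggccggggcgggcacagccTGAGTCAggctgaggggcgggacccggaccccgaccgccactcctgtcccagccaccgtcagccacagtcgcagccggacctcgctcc

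A total of 4 motifs were searched on both strands. TGANTCA (AP-1) was present in 2 of the 9 member windows and in 7.81% of all 32851 promoter windows of this length. The S100a11 window held it at -136 and -38 from the start, and the S100a16 window held it at -192. TATAAA was present in the windows of S100a4, S100a8 and S100a9, beside 13.6% of all windows. It began 30 bases before the start of S100a8, 31 bases before that of S100a4, and at the annotated start of S100a9. TTGCNNAA (C/EBP) was present in the S100a9 window and in 10.8% of all windows, and GGGCGG (GC box) in 3 member windows and in 35.7% of all windows. These matches describe the letters of the windows and are not evidence of binding.

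The libraries were checked before the members were compared. Mapk8 was at 23.9 and 19.1 FPKM in replicates 1 and 2 of JNK_WT, against 4.30 and 4.27 FPKM in replicates 1 and 3 of JNK_KO, and Mapk9 was at 29.7, 24.3, 12.6 and 8.66 FPKM in the same order. Trp53 was between 1.55 and 5.72 FPKM in the 4 lines. FPKM summed to between 775960 and 921595 per library. The epithelial markers Krt8 (278 to 1045 FPKM) and Epcam (150.3 to 629.7 FPKM) were present in each line. The leukocyte marker Ptprc was at or below 0.0134 FPKM, and 13 of the 17 neutrophil and myeloid genes in the table were under 1 FPKM in each library. The highest of these 17 was Ltf, lactoferrin, which milk-secreting epithelium also makes. The summed level of this list was 24.7 and 170.7 FPKM in the JNK_WT lines and 7.58 and 93.7 FPKM in the JNK_KO lines.

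To ask how much of each transcriptome the family occupied, member FPKM were summed. The sum was 4603 and 2902 FPKM in the JNK_WT lines and 3818 and 3317 FPKM in the JNK_KO lines, so the groups overlapped. These sums were 0.593%, 0.345%, 0.414% and 0.412% of all FPKM. S100a6, S100a11 and S100a10 together made up between 93.5% and 94.9% of the sum in each library. By mean FPKM over the 4 lines the order was S100a6, S100a11, S100a10, S100a4, S100a16, S100a1, S100a14, S100a13, S100a8 and S100a9. Ranges over the lines did not overlap between S100a6 and S100a11, between S100a10 and S100a4, or between S100a8 and S100a9. The other neighbors in this order overlapped, although S100a11 exceeded S100a10, and S100a13 exceeded S100a8, within each of the 4 libraries.

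**Figure D1:**
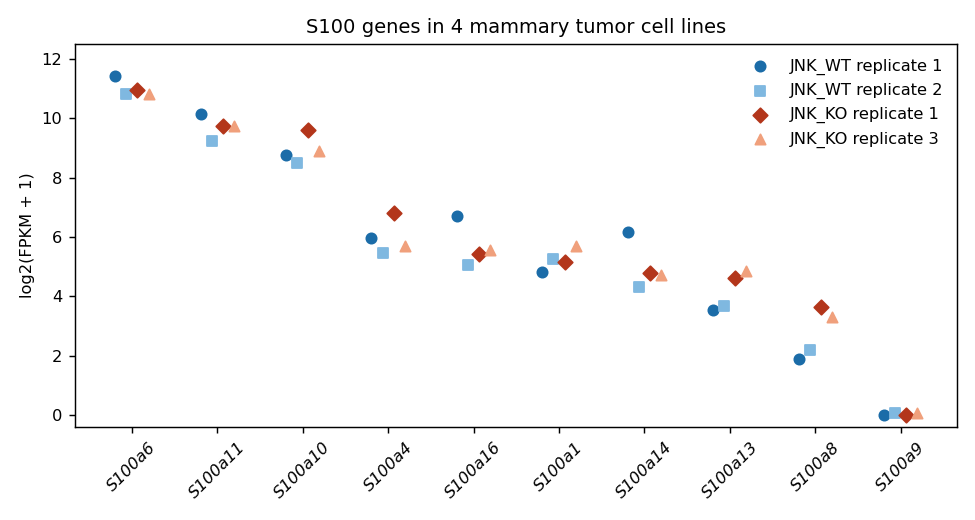
Level of each S100 gene on the log2(FPKM + 1) scale (vertical axis) in the 4 tumor cell lines, 1 point per library, with genes ordered by mean FPKM. S100a6, S100a11 and S100a10 stood far above the other members, S100a9 was at or near 0 in each line, and the JNK_KO points lay above the JNK_WT points for S100a13, S100a8 and S100a10.

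To examine the effect of JNK loss, JNK_KO lines were compared with JNK_WT lines by limma on log2(FPKM + 1). None of the 9 members tested was called (0 genes) at an adjusted p-value under 0.05 with an absolute log2 difference over 0.75, and 0% of all 12998 genes were called. By the unadjusted limma p-value under 0.05, 2 of 9 members passed (S100a8 and S100a13), beside 992 of all genes (7.63%). The same 2 members had an absolute log2 difference over 0.75, beside 15.7% of all genes, and both were higher in JNK_KO cells, as were 9.25% of all genes. In 3 of 9 members (S100a8, S100a10 and S100a13) the groups did not overlap, beside 35.0% of all genes. All 3 were higher in JNK_KO cells, beside 18.3% of all genes. The share without overlap was close to that of all genes, and each of the other counts rests on these same 2 or 3 genes. The median log2 difference was 0.38 over the 9 members and 0.01 over all genes tested. Leaving out JNK_KO replicate 1 brought the median of the members to 0.051, and leaving out JNK_KO replicate 3 brought it to 0.11. With 2 lines against 2, a permutation test cannot give a p-value under 0.33.

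**Figure D2:**
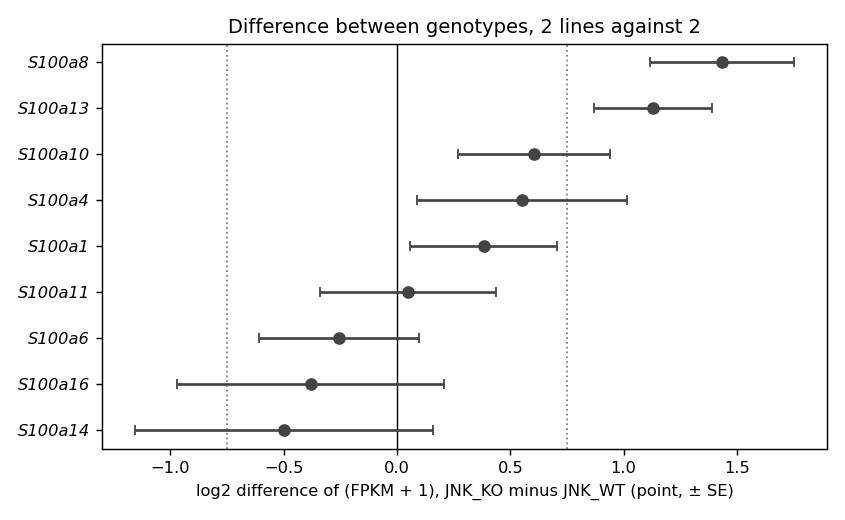
Log2 difference between JNK_KO and JNK_WT lines for the 9 members tested (horizontal axis, on the log2(FPKM + 1) scale), with points for the limma estimate, bars for its SE and dotted lines at the 0.75 threshold on either side of 0. S100a8 at 1.44 and S100a13 at 1.13 lay beyond the threshold, and the bars of S100a6, S100a11, S100a14 and S100a16 crossed 0.

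Calprotectin, the complex of S100A8 and S100A9, is abundant in neutrophils, binds zinc and manganese, and signals through TLR4 and RAGE. S100a8 RNA was at 2.73 and 3.52 FPKM in replicates 1 and 2 of JNK_WT, against 11.4 and 8.95 FPKM in replicates 1 and 3 of JNK_KO. Both JNK_KO lines therefore lay above both JNK_WT lines, and the gap exceeded the spread within either genotype. The mean was 3.13 ± 0.560 FPKM for JNK_WT against 10.2 ± 1.73 FPKM for JNK_KO (SD, n = 2 each), a 3.25-fold difference. The log2 difference of 1.44 (SE 0.32) had a limma unadjusted p-value of 0.00823 and an adjusted p-value of 0.378 over all genes. It stayed between 1.28 and 1.59 when each line was left out in turn.

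S100a9, the other subunit, was listed at 0 in JNK_WT replicate 1 and JNK_KO replicate 1, and at 0.0461 and 0.0423 FPKM in JNK_WT replicate 2 and JNK_KO replicate 3, so it failed the filter and was not tested. S100a8 was thus measured at several FPKM in lines in which the RNA of the other calprotectin subunit was nearly undetected. The neutrophil gene Ly6g was at 1.35 and 0.252 FPKM in the JNK_WT lines against 0.482 and 0.342 FPKM in the JNK_KO lines, and Elane, Retnlg and Tyrobp were listed at 0 in each library. Other genes of the neutrophil and myeloid list were measured. Cd68 was at 20.0 and 3.15 FPKM in the JNK_WT lines against 2.65 and 8.43 FPKM in the JNK_KO lines. Csf1r was at 1.82 and 0.448 FPKM against 0.312 and 1.23 FPKM in the same order. In such bulk samples fewer cells of a type and less RNA per cell cannot be told apart.

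S100A13 takes part in the release of FGF1 and interleukin-1α, which lack a signal peptide, and S100A1 is best known as a calcium sensor of heart and skeletal muscle. S100a13 was at 10.7 and 11.9 FPKM in replicates 1 and 2 of JNK_WT, against 23.7 and 28.2 FPKM in replicates 1 and 3 of JNK_KO. Both JNK_KO lines lay above both JNK_WT lines, and lines of one genotype lay close together. The means were 11.3 ± 0.841 and 25.9 ± 3.12 FPKM (SD, n = 2 each), a 2.30-fold difference. The log2 difference of 1.13 (SE 0.26) had a limma unadjusted p-value of 0.00972 and an adjusted p-value of 0.405. Without single lines it was 1.01 to 1.25.

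S100a1, which shares the promoter stretch printed in capitals above, was at 27.1 and 37.5 FPKM in the JNK_WT lines against 34.5 and 50.8 FPKM in the JNK_KO lines. The groups overlapped, and the log2 difference of 0.38 (SE 0.32, limma adjusted p-value 0.949) was smaller than the distance between the lines of either genotype. It was 0.11 without JNK_KO replicate 3 and 0.65 without JNK_KO replicate 1. The ratio of S100a13 to S100a1 was 0.394 and 0.316 in JNK_WT cells and 0.687 and 0.554 in JNK_KO cells. A total of 6 such ratios between 2 genes were computed, of which 3 had groups that did not overlap, and no test was made of them. The 3 were S100a13 to S100a1, S100a6 to Cacybp, and S100a4 to Myh9 (0.374 and 0.512 in JNK_WT cells, 0.881 and 0.528 in JNK_KO cells). Among single genes the share without overlap was 35.0%, and a share for ratios of other gene pairs was not computed. The cargo genes of S100A13 gave no common direction. Fgf1 was at 2.79 and 2.44 FPKM in the JNK_WT lines against 2.95 and 1.14 FPKM in the JNK_KO lines, and Il1a was at 0.444 and 8.25 FPKM in the JNK_WT lines against 6.66 and 13.4 FPKM in the JNK_KO lines.

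S100A10, also called p11, has lost calcium binding and is held in a complex with annexin A2 at the plasma membrane, where it can bind plasminogen. S100a10 was at 437 and 361 FPKM in replicates 1 and 2 of JNK_WT, against 768 and 475 FPKM in replicates 1 and 3 of JNK_KO. The groups did not overlap, but the distance between the JNK_KO lines was larger than that between genotypes. The mean was 399 ± 53.8 FPKM for JNK_WT against 621 ± 207 FPKM for JNK_KO (SD, n = 2 each). The log2 difference was 0.60 (SE 0.34) at a limma adjusted p-value of 0.839. It was 0.26 without JNK_KO replicate 1. Anxa2, the partner, was at 562 and 365 FPKM in the JNK_WT lines against 613 and 491 FPKM in the JNK_KO lines, with overlapping groups. The ratio of S100a10 to Anxa2 was 0.777 and 0.989 in JNK_WT cells and 1.25 and 0.966 in JNK_KO cells. Ahnak, a large scaffold bound by that complex, was at 49.0 and 32.7 FPKM in the JNK_WT lines against 32.2 and 32.9 FPKM in the JNK_KO lines.

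S100A6, or calcyclin, binds the ubiquitin ligase adaptor CacyBP and several annexins. S100a6 was the most abundant member, at 2768 and 1796 FPKM in replicates 1 and 2 of JNK_WT, against 1956 and 1783 FPKM in replicates 1 and 3 of JNK_KO. It ranked between 22 and 34 among all genes in the 4 libraries. JNK_WT replicate 1 was above the other lines, which differed little, and the groups overlapped. The log2 difference was -0.26 (SE 0.35, limma adjusted p-value 0.995) and turned to 0.056 without JNK_WT replicate 1. Cacybp was at 68.7 and 44.6 FPKM in the JNK_WT lines against 65.6 and 57.9 FPKM in the JNK_KO lines, and the ratio of S100a6 to Cacybp was 40.3 and 40.2 in JNK_WT cells and 29.8 and 30.8 in JNK_KO cells. Sugt1, which encodes a co-chaperone bound by calcyclin, was at 22.1 and 26.7 FPKM in the JNK_WT lines against 29.5 and 35.6 FPKM in the JNK_KO lines.

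S100A11, or calgizzarin, binds annexin A1. S100a11 was at 1124 and 598 FPKM in replicates 1 and 2 of JNK_WT, against 845 and 849.6 FPKM in replicates 1 and 3 of JNK_KO. The JNK_KO lines fell between the JNK_WT lines and were nearly equal to each other. The log2 difference was 0.047 (SE 0.39, limma adjusted p-value 0.999). It was -0.41 without JNK_WT replicate 2 and -0.044 after FPKM were rescaled to the same sum in each library. A processed pseudogene of S100a11 lies on chromosome 12 (73961142 to 73961447), and how reads that match both were assigned is not given in the sources used here. Anxa1 was at 2665 and 1959.9 FPKM in the JNK_WT lines against 978 and 3494 FPKM in the JNK_KO lines, a wider spread than that of S100a11.

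S100A4 binds non-muscle myosin heavy chain IIA, the product of Myh9, and is known for its link to motility and metastasis. S100a4 was at 60.7 and 42.6 FPKM in replicates 1 and 2 of JNK_WT, against 111 and 50.5 FPKM in replicates 1 and 3 of JNK_KO. Only JNK_KO replicate 1 stood above the rest, and the groups overlapped. The log2 difference of 0.55 (SE 0.46, limma adjusted p-value 0.949) became -0.011 without that line. Vim, the mesenchymal intermediate filament gene, was at 331 and 47.2 FPKM in the JNK_WT lines against 500.4 and 159 FPKM in the JNK_KO lines, which is the same order of the 4 lines as for S100a4. This order was found in 2 of the 12 mesenchymal markers tested, Vim and Zeb2, and the other markers followed other orders. The 16 mesenchymal markers summed to 918 and 341 FPKM in the JNK_WT lines against 979 and 548 FPKM in the JNK_KO lines, sums made up mostly of Vim and Fn1, and their part in the S100a4 values was not tested. Myh9 was at 162 and 83.3 FPKM in the JNK_WT lines against 126 and 95.7 FPKM in the JNK_KO lines. A predicted gene on the same strand, Gm42674, overlaps S100a4 in the annotation and has no value here, so reads of the overlap cannot be told apart.

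S100A14 and S100A16 are members with weak calcium binding that are expressed in epithelia. Their genes are adjacent, with 8.42 kb between them. S100a14 was at 70.7 and 18.9 FPKM in replicates 1 and 2 of JNK_WT, against 26.2 and 25.3 FPKM in replicates 1 and 3 of JNK_KO. S100a16 was at 103 and 32.2 FPKM in the JNK_WT lines against 42.3 and 45.9 FPKM in the JNK_KO lines. In both genes JNK_WT replicate 1 was the highest line and JNK_WT replicate 2 the lowest, with the JNK_KO lines close together between them. JNK_WT replicate 1 exceeded the mean of the other lines by 3.01-fold for S100a14 and 2.56-fold for S100a16, while the ratio of S100a16 to S100a14 stayed between 1.45 and 1.81. The log2 differences were -0.50 (SE 0.66) and -0.38 (SE 0.59), with limma adjusted p-values of 0.994 and 0.997. Without JNK_WT replicate 1 they turned to 0.43 and 0.44.

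**Figure D3:**
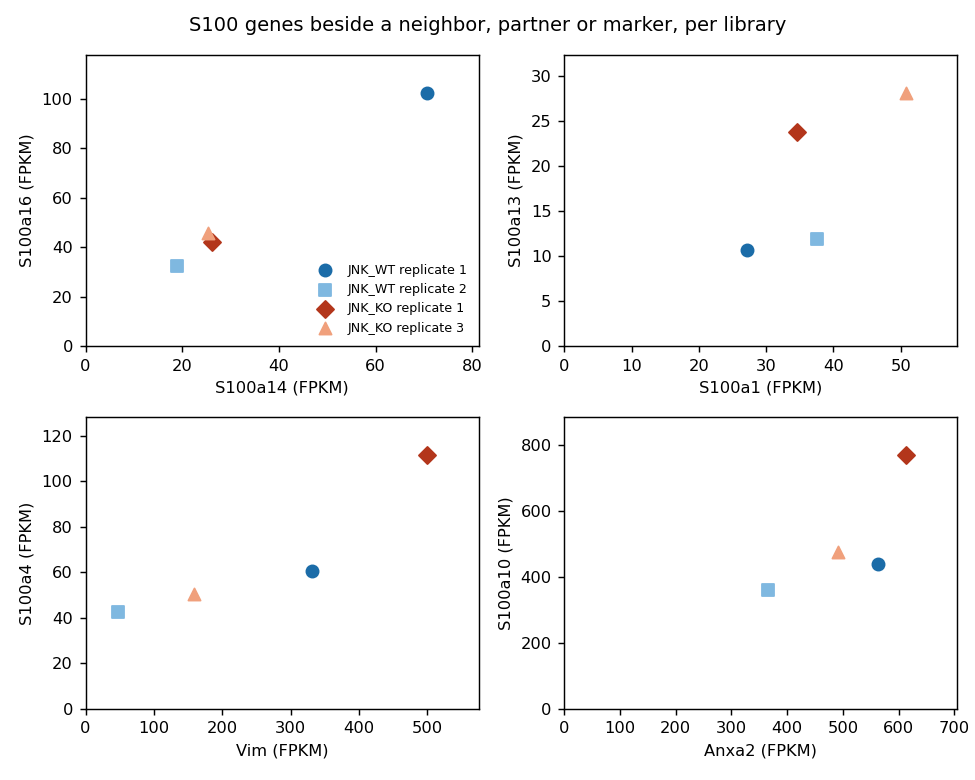
FPKM per library of 4 S100 genes (vertical axes) against a neighboring gene, a partner or a marker (horizontal axes), 1 point per line, with axes from 0. JNK_WT replicate 1 was apart from the other lines for S100a14 and S100a16, the genotypes were separate for S100a13 but overlapped for S100a1, S100a4 and Vim (1 of 2 among 12 mesenchymal markers tested) shared an order of lines, and S100a10 was highest in the line with the highest Anxa2.

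The lines of one genotype were also compared with each other. The group difference exceeded the distance between the lines of each genotype in 2 of the 9 members tested, S100a8 and S100a13, beside 23.6% of all genes, so the members were close to the background. JNK_WT replicate 1 was the highest library for 4 of 9 members (S100a6, S100a11, S100a14 and S100a16), beside 26.7% of all genes tested. JNK_KO replicate 1 was the highest for S100a4, S100a8 and S100a10, beside 24.8% of all genes, and JNK_KO replicate 3 for S100a1 and S100a13, beside 21.7%. No member (0 of 9) was highest in JNK_WT replicate 2, beside 26.9% of all genes. In that library 5 members were lowest, beside 27.4% of all genes. JNK_WT replicate 1 had the highest sum of the 16 luminal markers, 5092 FPKM against 1983 to 4141 FPKM in the other lines, although single markers differed. It was the highest line for 5 of the 16 luminal markers, Krt7, Krt8, Krt18, Krt19 and Cldn4, and the lowest for 4, Elf5, Kit, Cd24a and Muc1. It also held the lowest sum of the 9 basal markers, 26.3 FPKM against 38.6 to 736 FPKM, although single markers differed here too. Of the 4 basal markers tested, Krt14 and Trp63 were lowest in JNK_WT replicate 1, but Krt17 and Acta2 were lowest in JNK_KO replicate 1. None of these marker genes was called by limma (0 genes). An unadjusted limma p-value under 0.05 was found for 1 of 16 luminal, 0 of 4 basal, 5 of 12 mesenchymal and 0 of 3 neutrophil and myeloid genes tested, beside 7.63% of all genes. The 5 mesenchymal genes, named after their values were seen, were Dcn, Pdgfra, Pdgfrb and Zeb1, higher in JNK_KO cells, and Cdh2, lower. Dcn was at 0.430 and 0.389 FPKM in the JNK_WT lines against 79.7 and 162 FPKM in the JNK_KO lines (limma adjusted p-value 0.0554). The luminal gene was Gata3, a regulator of luminal identity named after its values were seen, at 1.79 and 1.18 FPKM in the JNK_WT lines against 31.6 and 38.6 FPKM in the JNK_KO lines (limma adjusted p-value 0.0903). Krt14, a basal keratin, was at 7.34 and 443 FPKM in the JNK_WT lines against 26.7 and 313 FPKM in the JNK_KO lines. The part of these markers in the S100 values was not tested.

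**Figure D4:**
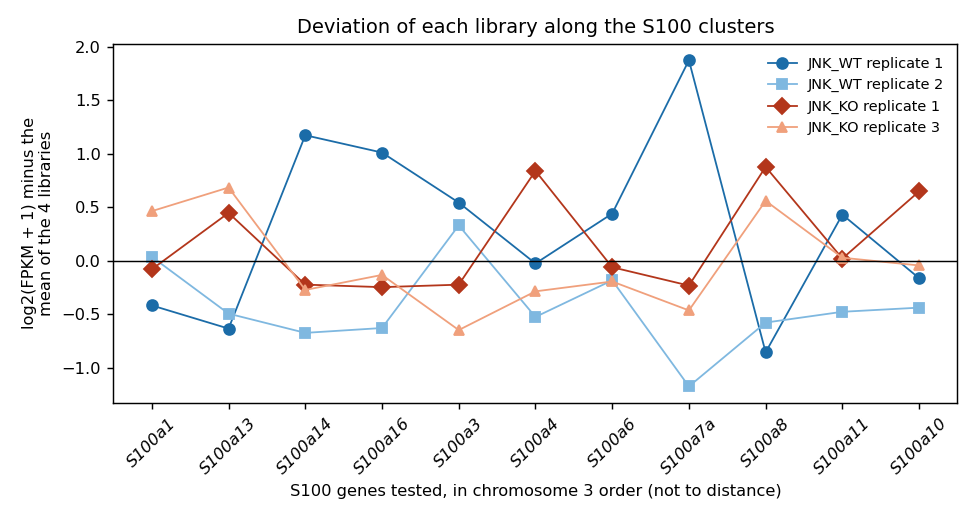
Deviation of each library from the mean of the 4 libraries on the log2(FPKM + 1) scale (vertical axis) for the 11 S100 genes of chromosome 3 that were tested, in their order along the chromosome and not to distance. The adjacent S100a14 and S100a16 had nearly the same profile, while S100a7a was highest in JNK_WT replicate 1 and S100a8, the tested gene after it, in JNK_KO replicate 1.

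Other genes with an S100 symbol were also examined. Of the 8 further genes with an S100 symbol in the table, 3 passed the filter and 0 were called by limma. An unadjusted limma p-value under 0.05 was found for 1 of them, S100a3, beside 7.63% of all genes. S100a3, a gene of hair and epithelium, was at 9.21 and 7.80 FPKM in the JNK_WT lines against 5.0 and 3.47 FPKM in the JNK_KO lines. Both JNK_KO lines were thus lower, as in 16.7% of all genes (log2 difference -0.87, SE 0.33, limma adjusted p-value 0.653). S100a3 spans S100a2 on the same strand, so reads of the overlap cannot be told apart. S100a7a was at 8.78 FPKM in JNK_WT replicate 1 and between 0.182 and 1.27 FPKM in the other lines. S100pbp, which encodes a binding partner of S100P, was at 26.8 and 14.5 FPKM in the JNK_WT lines against 12.8 and 16.3 FPKM in the JNK_KO lines. S100a2, S100a5, S100b and S100z stayed under 1 FPKM in each library, and S100g was listed at 0 in JNK_WT replicate 2 and JNK_KO replicate 1 and reached 1.60 FPKM in JNK_KO replicate 3.

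Receptors and intracellular partners of S100 proteins were examined as lists written from their known binding. Of 8 receptor genes 5 were tested and 0 were called by limma, and 0 had an unadjusted p-value under 0.05. Among the 5, the groups did not overlap for 1 gene higher and 1 gene lower in JNK_KO cells, beside 18.3% and 16.7% of all genes. Tlr4, a receptor for S100A8, was at 3.02 and 8.61 FPKM in the JNK_WT lines against 12.4 and 14.8 FPKM in the JNK_KO lines. Its groups did not overlap, and the log2 difference was 1.23 (SE 0.51, limma adjusted p-value 0.700). Alcam, an adhesion molecule on the same list that was chosen after its values were seen, was at 14.5 and 38.3 FPKM in the JNK_WT lines against 4.36 and 12.2 FPKM in the JNK_KO lines. Its groups did not overlap in the opposite direction, with a log2 difference of -1.55 (SE 0.67, limma adjusted p-value 0.720). Ager, which encodes RAGE, was at 0.731 and 0.568 FPKM in the JNK_WT lines against 0.716 and 1.26 FPKM in the JNK_KO lines and failed the filter. Bsg, whose product also binds S100A9, was between 332 and 371 FPKM in the 4 lines.

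Of 24 intracellular partners and related genes 21 were tested, 0 were called by limma and 1 had an unadjusted p-value under 0.05, which was Plaur. The median log2 difference of the 21 was -0.29, beside 0.01 for all genes, and 5 were over 0.75 in size (beside 15.7% of all genes), 1 higher and 4 lower in JNK_KO cells. The groups did not overlap for 7 of the 21 genes, 1 higher and 6 lower, beside 35.0% of all genes, 18.3% higher and 16.7% lower. Among genes of the plasminogen system, which S100A10 can bind, Plaur, the urokinase receptor, was at 84.5 and 81.7 FPKM in the JNK_WT lines against 52.0 and 24.8 FPKM in the JNK_KO lines (log2 difference -1.19, SE 0.41, limma adjusted p-value 0.604). Plau, urokinase, was at 761 and 52.8 FPKM in the JNK_WT lines against 42.8 and 41.3 FPKM in the JNK_KO lines, with JNK_WT replicate 1 far above the other lines. Plat was at 17.8 and 1.43 FPKM in the JNK_WT lines against 7.62 and 2.57 FPKM in the JNK_KO lines.

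The genes most like the 2 members of widest range were sought over the 4 libraries, by the mean absolute distance between log2(FPKM + 1) profiles centered on their means. For S100a14 these were Slc39a10 (0.061), Pcdh19 (0.067) and Sned1 (0.075). Slc39a10 was at 27.3 and 7.03 FPKM in the JNK_WT lines against 9.77 and 8.35 FPKM in the JNK_KO lines. For S100a8 they were Cfb (0.059), Ddx58 (0.077) and Ntng2 (0.077). Cfb was at 1.34 and 1.95 FPKM in the JNK_WT lines against 7.48 and 6.04 FPKM in the JNK_KO lines. These distances are given as a description over 4 libraries.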

How the data were processed

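RNA of 4 mammary tumor cell lines (2 per genotype) had been sequenced. According to the methods and the submitters' processing notes, the authors filtered single-end reads with Trimmomatic, drew a like number per sample with seqtk, mapped them on mm10 by TopHat2 2.0.14 and Bowtie2, and quantified genes by Cufflinks 2.2.1. The deposited values were FPKM, 1 per gene and library, and the gene annotation used is not given in the sources used here. No strand-specific protocol was stated, and Cufflinks divides reads of overlapping genes and close copies by estimate. Of 38741 rows, 27 with symbols turned into dates and 1 without a value were left out. Groups and replicate numbers came from sample titles.

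Genes with FPKM of at least 1 in at least 2 libraries were tested on log2(FPKM + 1), which understates differences of low genes, with limma 3.58.1 (lmFit, eBayes with intensity trend) run under R 4.3.3. Tests were two-sided, and p-values were adjusted by Benjamini-Hochberg over all 12998 genes. The thresholds (adjusted p-value under 0.05, absolute log2 difference over 0.75) follow the study, whose own test needs alignments. Since FPKM are not counts, no count model was fitted. The lines derive from separate tumors but were each sequenced once. The fit was first tested on simulated data with 2 lines per group. The smaller of the changes simulated was larger than the difference of any member, and genes with that change were not called. The labels give no sequencing batch. The steps of low values gave depths of 1.06, 1.27 and 1.40 for JNK_WT replicates 1 and 2 and JNK_KO replicate 3, relative to JNK_KO replicate 1. No read total per library was used here, so no counting interval was computed.

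The members and gene lists were chosen with earlier results of these data known. Genes named were all members, other S100 genes, set partners, receptors and markers, targeted genes, nearest neighbors on the chromosome, and the 3 genes most like each of the 2 members of widest range. The other pseudocounts, filters, scalings, variance models and fits without single lines are given after the report. Positions came from GENCODE M21 and promoters from RefSeq. Python 3.11.15, pandas 2.3.3 and matplotlib 3.10.9 were used.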

Additional observations from a re-analysis of the deposited data

How the results depend on the processing

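No paired analysis was possible because replicate number 1 alone occurs in both genotypes and the labels tie it to no litter or day. Of 81 single member values under other pseudocounts, filters, scalings and variance models, 80 kept their direction and side of the threshold, and the exception was S100a11 (-0.044 when FPKM were rescaled to one common sum per library, where the median of all genes moved from 0.01 to -0.07). No member (0) was called by limma under any setting run, and 2 had an unadjusted p-value under 0.05 in the reported comparison. With 2 lines per genotype this count of 0 says nothing about stability. The smallest adjusted p-value of any member under any alternative was 0.267 (S100a14, without JNK_WT replicate 2). Without each line in turn, the number of members over 0.75 ranged from 2 to 4 (beside 16.5% to 23.2% of all genes), the number with groups that did not overlap from 4 to 8 (beside 60.8% to 72.4% of all genes, since 1 line is then set against 2), and the median from 0.051 to 0.50. The summed FPKM of JNK_KO over JNK_WT cells was 0.951, and from 0.775 to 1.23 in those fits. Log2 differences without each line ranged from -0.011 to 1.12 for S100a4, -0.57 to 0.056 for S100a6, -0.41 to 0.50 for S100a11, -1.42 to 0.43 for S100a14 and -1.20 to 0.44 for S100a16, and these 5 changed sign. The cause was not tested. Without a filter S100a9 entered and the median was 0.21. A member that was not called is not shown to be unchanged.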

Other observations

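The surroundings of the S100 genes on chromosome 3 were examined. The 610 tested genes of chromosome 3 had a median log2 difference of 0.12, and the groups did not overlap for 34.4% of them. Chtop, the tested gene next to S100a1, ends 1536 bases before the first cluster and was at 53.6 and 50.7 FPKM in the JNK_WT lines against 57.3 and 56.2 FPKM in the JNK_KO lines, a far narrower range than that of S100a13 nearby. On the other side the next tested gene lay 1318862 bases away and was Pglyrp3, which encodes a peptidoglycan recognition protein, at 3.70 and 5.77 FPKM in the JNK_WT lines against 9.07 and 52.9 FPKM in the JNK_KO lines (log2 difference 2.05, SE 0.87, limma adjusted p-value 0.714). Beside the S100a11 and S100a10 cluster, Them4 was at 2.75 and 2.18 FPKM in the JNK_WT lines against 3.07 and 3.93 FPKM in the JNK_KO lines. On the near side lay Gm22752, which was listed at 0 in JNK_WT replicate 1 and JNK_KO replicate 1 and was at 3.60 FPKM in JNK_WT replicate 2 and 10.4 FPKM in JNK_KO replicate 3.

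The region between both S100 clusters holds genes of epidermal differentiation, such as Lor, Ivl, Flg and the Sprr family. Of 16 genes of that program, on this and other chromosomes, 10 were under 1 FPKM in each library and 3 were listed at 0 throughout. The list summed to 6.47 and 13.5 FPKM in the JNK_WT lines against 9.76 and 3.31 FPKM in the JNK_KO lines, far below the S100 sum in each library. None of its 3 tested genes was called by limma (0 genes, 0 with an unadjusted p-value under 0.05).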
